A study of Mus musculus with 6 samples.

Results

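Rod bipolar nuclei are the nuclei of the interneuron that carries rod signals inward through the mouse retina, and 2198 of the 27225 nuclei that passed the filters met the rule for them. A member had at least 2 RNA molecules (unique molecular identifiers, UMIs) of Prkca, the protein kinase C alpha gene by which this cell is classically stained. It had at least 4 of 9 further genes detected, which were Lrrtm4, Car8, Vstm2b, Ano3, Sebox, Tpbg, Trpm1, Gpr179 and Strip2. Its summed UMIs of Prkca, Lrrtm4, Car8, Vstm2b and Ano3 were at least as many as those of the cone bipolar genes Sox6, Hs3st4, Cntn5, Cdh9 and Il1rapl2. There were 702 members from eyes given WIF1 and taken at 2 weeks, 762 from eyes given WIF1 and taken at 4 weeks, and 734 from the naïve wild-type control. All eyes were from C57BL/6J mice.

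Each group is 1 library of a 10x multiome assay, which reads RNA and open chromatin (ATAC) in the same nucleus, and 2 eyes per group are named without saying whether they were pooled. WIF1, a secreted protein that binds Wnt ligands, was given in an AAV2/2 vector under the CMV promoter. The design names a Wif1-HA vector and a Wif1-HA-IRES-GFP vector without saying which was used for these eyes, and the times carry the unexpanded abbreviation AVI. A control vector, CMV-IRES-GFP, is named, but 0 of the 3 libraries were made with it and the control eyes were naïve, so effects of injection, vector and WIF1 cannot be told apart. With 1 library per group nothing was tested. Ratios are given with 95% intervals that cover counting error only, and each difference describes these libraries.

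The rod bipolar cell is a sign-inverting ON bipolar cell. In the dark, glutamate from rods acts on the receptor mGluR6 at its dendrites, and the G protein Go keeps the cation channel TRPM1 closed. Light stops the glutamate, regulators of G protein signalling turn Go off, TRPM1 opens and the cell depolarises. Its axon releases glutamate from ribbon synapses onto amacrine cells, which pass the rod signal on to the cone pathways, and GABA and glycine receptors on the axon receive amacrine feedback. Neurons of the healthy retina hold little MHC class I, the surface complex of a heavy chain and the light chain beta-2 microglobulin that shows peptides to T cells.

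Class I genes were among those with the highest RNA ratios at 2 weeks, and the promoters of 4 of them are shown because their chromatin was read in the same nuclei. Each run is 250 bases before to 50 after the start from RefSeq on GRCm38.p6, the assembly behind mm10, on the strand of the gene. H2-K1 lies at chr17:34000298-34000597 on the minus strand. B2m lies at chr2:122147437-122147736, H2-D1 at chr17:35262844-35263143 and H2-Q7 at chr17:35438905-35439204, all on the plus strand. Capitals mark matches on either strand to GAAA, any 2 bases and GAAA, the core of the interferon-stimulated response element, to GAANNGAAA, a shorter interferon regulatory factor element, to TGACGC, the X2 box of class I promoters, and to CCAAT.
H2-K1: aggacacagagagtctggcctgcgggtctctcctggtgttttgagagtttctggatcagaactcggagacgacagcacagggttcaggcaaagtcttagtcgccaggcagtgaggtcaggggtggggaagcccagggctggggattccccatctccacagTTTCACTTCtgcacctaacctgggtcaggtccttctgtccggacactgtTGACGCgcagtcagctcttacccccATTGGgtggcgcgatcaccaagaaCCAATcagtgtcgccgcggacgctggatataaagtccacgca
B2m: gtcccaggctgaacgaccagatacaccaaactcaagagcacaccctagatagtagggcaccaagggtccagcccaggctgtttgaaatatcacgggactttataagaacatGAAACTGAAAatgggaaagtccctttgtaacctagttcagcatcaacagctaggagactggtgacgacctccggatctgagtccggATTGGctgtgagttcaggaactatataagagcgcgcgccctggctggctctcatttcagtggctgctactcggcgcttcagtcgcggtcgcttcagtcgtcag
H2-D1: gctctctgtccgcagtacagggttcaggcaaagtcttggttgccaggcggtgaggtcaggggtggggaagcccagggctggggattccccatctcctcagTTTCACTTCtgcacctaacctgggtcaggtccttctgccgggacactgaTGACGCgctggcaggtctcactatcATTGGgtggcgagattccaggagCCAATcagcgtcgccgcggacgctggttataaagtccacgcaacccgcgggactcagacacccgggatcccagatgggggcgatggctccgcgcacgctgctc
H2-Q7: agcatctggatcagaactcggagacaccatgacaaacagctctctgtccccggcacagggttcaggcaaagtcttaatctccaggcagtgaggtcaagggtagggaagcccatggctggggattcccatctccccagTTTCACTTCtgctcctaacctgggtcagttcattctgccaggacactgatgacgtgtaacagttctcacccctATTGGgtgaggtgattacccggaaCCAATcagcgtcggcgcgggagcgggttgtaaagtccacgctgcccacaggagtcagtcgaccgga

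The first motif searched, the response element core, is held by 3.44% of the 32851 mouse promoters of the table and by B2m among these 4, at 139 bases before the start. The shorter GAANNGAAA and TGACGC were added after the first was seen to be absent from the H2 promoters, and 7.52% and 7.40% of promoters hold them. The short element cannot fall inside the longer core, and no 2 capital runs overlap. GAANNGAAA stands 90 bases before the start of H2-K1, 150 before H2-D1 and 113 before H2-Q7. TGACGC stands 41 bases before the start of H2-K1 and 101 before H2-D1. CCAAT, held by 37.4% of promoters, occurs in all 4. These are matches of letters and say nothing of binding.

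MHC class I RNA was higher in rod bipolar nuclei of the 2-week library than in those of either other library. H2-K1, a class I heavy chain, held 391 UMIs at 2 weeks, 15 at 4 weeks and 24 in the control, or 203, 4.6 and 7.28 CPM, the UMIs scaled to the same total over the rod bipolar nuclei of each library. The 2-week level was 27.9 times that of the control (18.5 to 44). B2m, the light chain, held 222, 16 and 38 UMIs, or 115, 4.91 and 11.5 CPM, and stood at 9.99 times the control at 2 weeks (7.06 to 14.5). H2-D1, another heavy chain, held 230, 48 and 58 UMIs and stood at 6.78 times the control (5.07 to 9.21). H2-Q7, a non-classical heavy chain, held 93 UMIs at 2 weeks, 0 at 4 weeks and 3 in the control, a ratio of 53.0 at 2 weeks (17.6 to 262). With nuclei thinned to 1000 UMIs and control values under 3 UMIs set to 3, the ratio of H2-Q7 was 12.9. For all 4 genes the 2-week library was the highest. The 4-week library stood below the control, but by few UMIs, and no interval is given for that direction. With mixed nuclei, defined further on, left out, H2-K1 held 5 UMIs at 4 weeks and 5 in the control. In the same order B2m held 10 and 21, H2-D1 29 and 33 and H2-Q7 0 and 1.

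The UMIs were spread over many nuclei. H2-K1 had a UMI in 249 rod bipolar nuclei at 2 weeks, 14 at 4 weeks and 19 in the control, and no nucleus held more than 2.81% of the 2-week UMIs. H2 genes are near-identical copies, so the counting may have moved reads between H2-K1, H2-D1 and H2-Q7. Over the class I genes counted together, 61.8% of rod bipolar nuclei had a UMI at 2 weeks, 8.92% at 4 weeks and 11.4% in the control. With each nucleus thinned to 1000 UMIs the shares were 35.3%, 1.97% and 2.59%. Rod nuclei, shallower cells of the same libraries, had 22.3%, 4.14% and 5.15% after the same thinning and 9.46%, 3.84% and 6.43% before it. Gene by gene the 2-week share in thinned rod bipolar nuclei was 16.6% for H2-K1, against 8.98% in thinned rods, but 9.86% against 12.6% for B2m and 11.7% against 11.5% for H2-D1. Only the deepest rods could be thinned, 713 of 5138 at 2 weeks, and 4425 were left out. Before thinning the 2-week shares were 20.8% in rod bipolar nuclei against 4.34% in rods for B2m and 24.9% against 4.15% for H2-D1. As levels, B2m stood at 115 CPM in rod bipolar nuclei and 138 in rods, and H2-D1 at 119 and 84.5. The part of free RNA in the droplets was not tested.

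**Figure D1:**
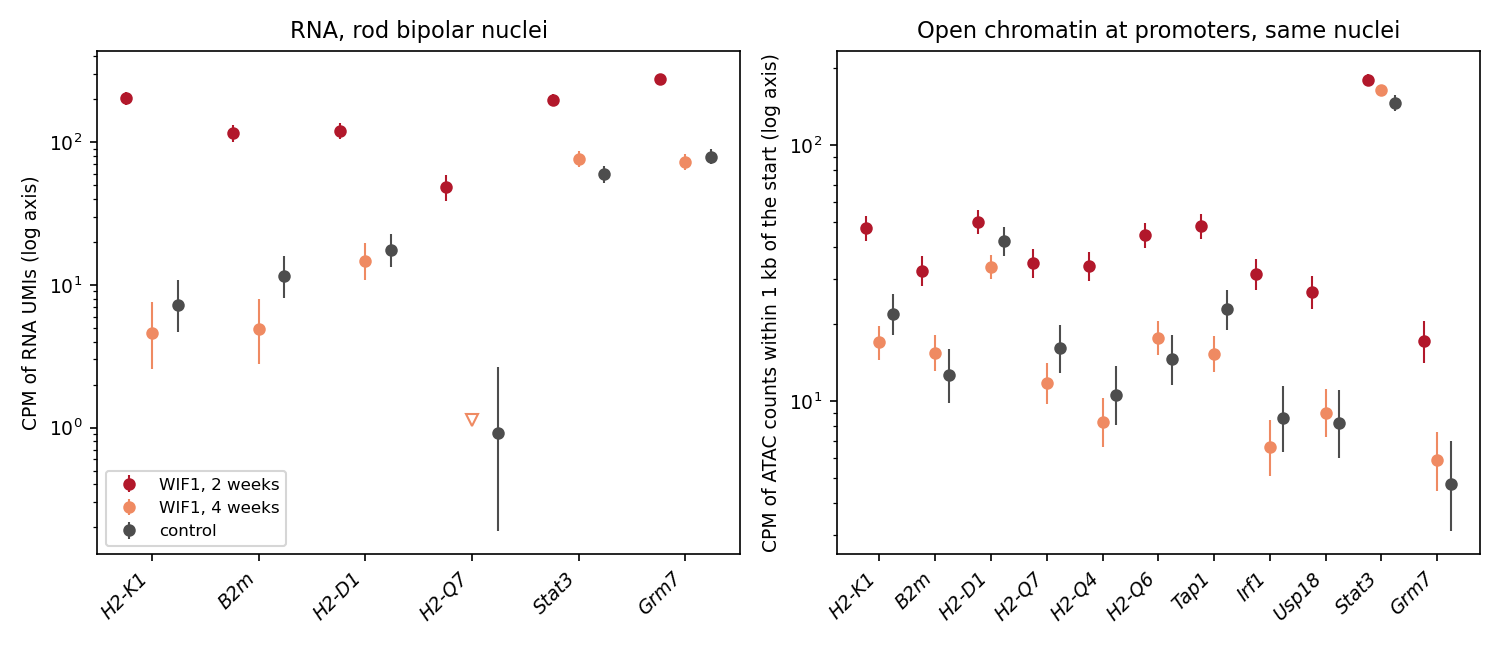
Class I RNA (CPM, log axis) and promoter ATAC (CPM of counts in regions shared by the libraries) of rod bipolar nuclei at 2 weeks, at 4 weeks and in the control, with bars for 95% counting intervals and an open triangle for the upper limit where a gene has 0 UMIs. H2-K1 RNA stands at 203 CPM at 2 weeks, 4.6 at 4 weeks and 7.28 in the control.

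Other bipolar nuclei, sorted by their cone bipolar genes, showed the same order. H2-K1 stood at 282 CPM in them at 2 weeks, 22.5 at 4 weeks and 23.4 in the control, 12.1 times the control at 2 weeks, and B2m at 113, 7.02 and 9.86 CPM. Of the 23 genes of an antigen presentation list, 7 had at least 50 UMIs in the higher library, and 5 of these were at least 2-fold higher at 2 weeks. Over all genes of that depth 122 of 8277 (1.47%) were 2-fold higher and 324 (3.91%) 2-fold lower. The median log2 ratio of the list was 1.61, beside −0.04 over all genes, and 18 of 21 measured members were above the control. Psme1, an activator of the immunoproteasome, stood at 32.1 CPM at 2 weeks, 12.9 at 4 weeks and 16.1 in the control. The chaperone Calr, which folds class I chains but serves many proteins, stood at 195, 294 and 272 CPM and the folding enzyme Pdia3 at 153, 194 and 170.1 CPM, so these members did not share the pattern. Between 4 weeks and control the list had a median of −0.04, and for 4 weeks over 2 weeks it was −1.32.

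Among genes of cytokine signalling, Stat3 was past 2-fold at 2 weeks, the 1 of 6 gp130 and STAT3 genes of sufficient depth. Over all genes 1.47% were 2-fold higher. Stat3, which acts below the gp130 receptors, held 380 UMIs at 2 weeks, 249 at 4 weeks and 196 in the control, or 197, 76.4 and 59.4 CPM, and was 3.32-fold higher at 2 weeks (2.78 to 3.96). In other bipolar nuclei the same ratio was 1.69. Rods too held most at 2 weeks, with 616 Stat3 UMIs of 4225915 in all. They held 409 of 5068363 at 4 weeks and 224 of 4414894 in the control. After thinning, 16.3%, 6.70% and 5.32% of rod bipolar nuclei had a Stat3 UMI, against 10.8%, 6.97% and 4.27% of rods. The interferon list had a median log2 ratio of 0.77 at 2 weeks, with 17 of 21 measured members above the control. Of its 5 members of sufficient depth 0 were past 2-fold. A2m, the protease inhibitor alpha-2-macroglobulin, held 82 UMIs in 41 nuclei at 2 weeks, 13 at 4 weeks and 2 in the control, a ratio of 70.1 with a wide interval (18.8 to 589), and of 8.03 with thinned nuclei and the same floor.

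Markers of immune cells moved with these genes. The 12 microglia markers summed to 155 CPM in rod bipolar nuclei at 2 weeks, 40.5 at 4 weeks and 44.9 in the control, with C1qa at 45, 6 and 4 UMIs and the class II chain gene Cd74 at 32, 0 and 0. Rod nuclei held more of them, at 364, 108 and 112 CPM. The 14 lymphocyte markers summed to 856, 16.3 and 11.5 CPM, and most of the first value was the immunoglobulin gene Igkc, with 951, 0 and 0 UMIs of which 1 nucleus held 735. The part of immune RNA in the class I values was not tested.

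ATAC counts, which the rule did not use, gave a separate reading of the same genes. At the H2-K1 promoter, rod bipolar nuclei stood at 47.4 CPM of shared regions at 2 weeks, 17.0 at 4 weeks and 21.9 in the control. Not scaled to depth, these were 359, 189 and 135 counts per kb of peaks of 893, 885 and 886 bp. All shared regions held 174, 255 and 143 counts per kb in the same order. The 2-week ratio to control was 2.16 (1.75 to 2.69), against 1.40 in other bipolar nuclei and 1.06 in rods. At the B2m promoter the values were 32.2, 15.4 and 12.6 CPM, with a ratio of 2.55 at 2 weeks (1.94 to 3.39), against 1.85 in other bipolar nuclei and 0.757 in rods. H2-Q7 stood at 34.5, 11.8 and 16.1 CPM, a ratio of 2.15. The H2-D1 promoter was higher by little, at 50.2, 33.4 and 42.1 CPM with a ratio of 1.19 (1.01 to 1.42), and at 0.991 once mixed nuclei, defined further on, were left out. Without those nuclei H2-K1 kept 2.07 and B2m 2.23.

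Among promoters where the higher library had 30 counts or more, 140 of 13532 (1.03%) were at least 2-fold higher at 2 weeks than in the control and 458 (3.38%) at least 2-fold lower. Without mixed nuclei the balance was the other way, with 301 higher and 133 lower. Of the 20 antigen presentation promoters 7 were higher and 0 lower, with a median log2 ratio of 0.32 beside −0.01 over all promoters. The shared region at the divergent starts of Tap1, a peptide transporter subunit, and Psmb9, an immunoproteasome subunit, stood at 48.1 CPM at 2 weeks, 15.3 at 4 weeks and 22.9 in the control, a ratio of 2.10 (1.71 to 2.61). Promoters were counted by gene, so this region can count once for each of these genes. Of 25 interferon promoters 4 were 2-fold higher at 2 weeks, Irf1, Ifit3, Usp18 and Irgm1, and 21 were above the control. The Irf1 promoter, of a transcription factor that activates class I genes, stood at 31.3, 6.60 and 8.60 CPM, a ratio of 3.64 (2.64 to 5.11), against 1.23 in other bipolar nuclei. That of Usp18, a brake on interferon signalling, stood at 26.6, 9.04 and 8.23 CPM, a ratio of 3.23 (2.32 to 4.58), against 2.40 in other bipolar nuclei. The promoter of Stat3 was near the control, with a ratio of 1.23. Of the 4-week promoters, 31 of 13833 (0.224%) were 2-fold higher and 185 (1.34%) 2-fold lower than control, among them 0 of these 2 lists in the higher direction. For 4 weeks over 2 weeks 457 of 13815 (3.31%) were higher and 219 (1.59%) lower, the lower ones including 7 antigen presentation promoters. Without mixed nuclei this balance also turned, to 43 higher and 342 lower.

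Grm7, the gene of the glutamate receptor mGluR7 that cone bipolar cells also make, was higher in rod bipolar nuclei at 2 weeks in RNA and at its promoter. It held 535 UMIs at 2 weeks, 237 at 4 weeks and 261 in the control, or 277, 72.7 and 79.1 CPM, and was 3.51-fold higher at 2 weeks (3.02 to 4.08). A Grm7 UMI was seen in 33.6%, 11% and 11.9% of rod bipolar nuclei, and in 20.3%, 4.73% and 3.82% after thinning, against 5.89%, 2.6% and 3.69% of thinned rods. Other bipolar nuclei, which hold more of it, stood at 611, 681 and 737 CPM, a 2-week ratio of 0.83. The Grm7 promoter held 116, 58 and 26 ATAC counts in rod bipolar nuclei, or 17.1, 5.89 and 4.76 CPM, a ratio of 3.6 (2.34 to 5.74). Other bipolar nuclei had 22.9, 22.6 and 28.4 CPM there. Without mixed nuclei the 2-week ratios of Grm7 were 6.53 in RNA, from 395 and 78 UMIs, and 4.26 at the promoter.

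RNA of rod, amacrine and cone bipolar genes was also counted in members, at levels that differed by library. A member was called mixed if it was called a doublet, held over 2% rod-list UMIs, held an amacrine UMI of a list of 10 genes or held over 2 cone bipolar UMIs. This definition was made after the values were seen. It took 151 of 702 members at 2 weeks (21.5%), 191 of 762 at 4 weeks (25.1%) and 252 of 734 in the control (34.3%). Its amacrine and cone bipolar limits are UMI counts not scaled to depth, and mixed nuclei were deeper than those kept. Their medians were 3138 against 2527 UMIs at 2 weeks, 5037 against 3276 at 4 weeks and 5099.5 against 3677 in the control. The part of depth in these shares was not tested. The amacrine list held 47, 86 and 303 UMIs in all members. The 40 rod genes summed to 7926, 14354 and 13686 CPM, and all 40 were below the control at 2 weeks. One 4-week nucleus held 67422 UMIs, 2.07% of the RNA of its group, and was not called a doublet.

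**Figure D2:**
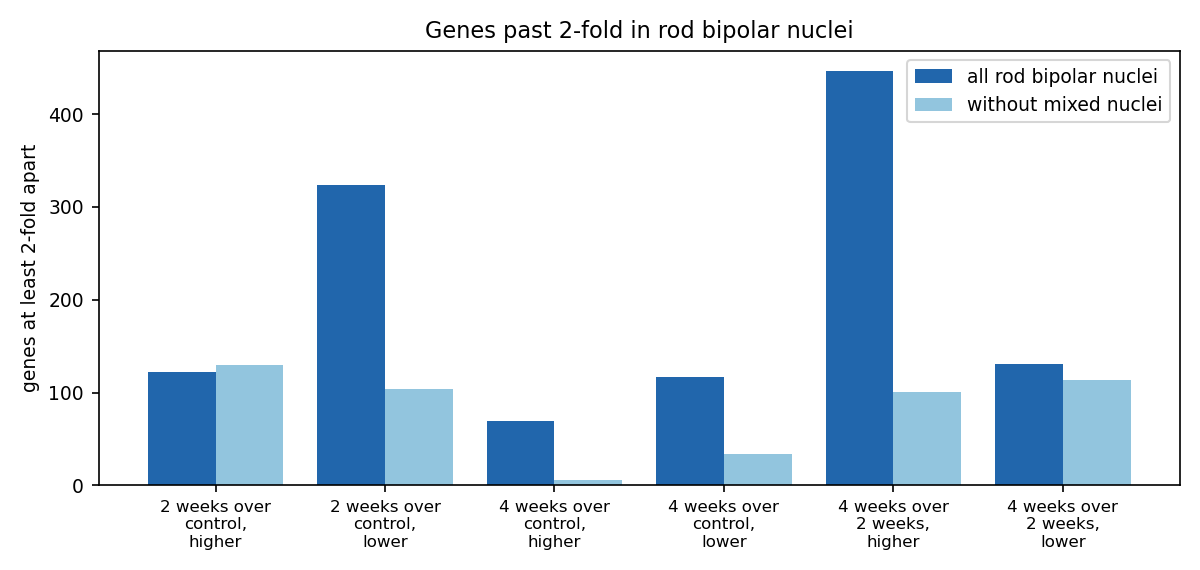
Genes at least 2-fold higher and lower in rod bipolar nuclei for each pair of libraries, over all members and without mixed nuclei. At 4 weeks against control 69 genes were higher over all members and 6 without mixed nuclei.

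Leaving out the mixed nuclei changed which genes were past 2-fold. At 2 weeks against control 130 genes were higher without them, 76 of them among the 122 over all members. Of the 324 lower genes over all members 233 no longer reached 50 UMIs. Without mixed nuclei 104 genes were lower, 62 of them among the 324. At 4 weeks against control 69 of 8642 genes (0.798%) were higher and 117 (1.35%) lower, and without mixed nuclei 6 and 34 were, with 1 and 18 in both. For 4 weeks over 2 weeks 446 of 8309 (5.37%) were higher and 131 (1.58%) lower, against 101 and 113 without mixed nuclei, with 49 and 74 in both. Without mixed nuclei H2-K1 stood at 287 UMIs at 2 weeks against 5 in the control, B2m at 10.1 times the control, H2-D1 at 6.88 and Stat3 at 3.2.

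After H2-Q7, H2-K1, A2m, B2m and H2-D1, the rule for named genes took Slit3, Snhg9, Dynlt1a, Leng9 and Polr2l as the highest at 2 weeks. Slit3, a secreted axon guidance ligand, held 51 UMIs at 2 weeks, 27 at 4 weeks and 13 in the control. Snhg9, a short snoRNA host gene, stood at 62.7, 17.2 and 14.2 CPM, a ratio of 4.40 at 2 weeks. Dynlt1a, a dynein light chain, stood at 45.1, 18.1 and 10.9 CPM and Polr2l, a subunit shared by RNA polymerases, at 35.8, 12.6 and 9.09 CPM. Promoter ratios of Snhg9, Leng9, Polr2l and Dynlt1a at 2 weeks were 0.972, 0.725, 1.03 and 1.17.

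The lowest genes at 2 weeks were of another kind. Gm42418 and AY036118, transcripts that overlie ribosomal RNA sequence, stood at 229.7, 2448 and 3014 CPM and at 71, 1110 and 884 CPM in rod bipolar nuclei. The kainate receptor gene Grik2 held 9, 38 and 193 UMIs, the glycosylation gene Galnt18 2, 42 and 115, and the heparan sulphate enzyme gene Hs6st3 14, 82 and 300. The others were Ncam2, Gm19951, Dync1i1, Cdk14 and Ptprt. UMIs of the 10 amacrine genes were 47, 86 and 303, of 1928618, 3260242 and 3298588 in all, and so fewer at both times than in the control. The full amacrine list of 12 genes stood at 663, 598 and 722 CPM. Without mixed nuclei Galnt18 held 0 UMIs at 2 weeks and 2 in the control, Grik2 8 and 1, and Hs6st3 11 and 46.

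At 4 weeks too many of the named genes rested on mixed nuclei. Erbb4, on the cone bipolar list, led the higher ones with 4 UMIs at 2 weeks, 85 at 4 weeks and 19 in the control, and held 4 and 4 at 4 weeks and in the control without mixed nuclei. Cfi, complement factor I, which cleaves C3b and C4b, was seen mostly in rod bipolar nuclei among the bipolar nuclei, with 35.3, 32.8 and 12.7 CPM against 0, 0.702 and 0.563 CPM in other bipolar nuclei. It stood at 2.77 times the control at 2 weeks and 2.58 times at 4 weeks (1.79 to 3.78), and at 2.53 and 2.66 times without mixed nuclei. Dpp10, a subunit of A-type potassium channels, held 27, 134 and 45 UMIs and was 3.01-fold higher at 4 weeks, with 14 and 3 UMIs at 4 weeks and in the control without mixed nuclei. The lowest at 4 weeks were led by genes of other inner retinal neurons, with C1ql1 at 16, 1 and 83 UMIs, Calb1 at 8, 3 and 78 and the peptide gene Cartpt at 11, 3 and 58. Without mixed nuclei C1ql1 held 1 UMI at 4 weeks and 12 in the control, and Cartpt 1 and 18.

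Each of the 17 genes of the mGluR6 cascade list had UMIs in rod bipolar nuclei of every library, and several were higher at 2 weeks. Some of these UMIs were in mixed nuclei, and with those left out Lrit3 held 1, 3 and 3 UMIs and Elfn1 7, 2 and 5. The 17 genes summed to 20795 CPM in rod bipolar nuclei at 2 weeks, 13992 at 4 weeks and 14500 in the control. Other bipolar nuclei had 8699, 6558 and 6502 CPM. Gng13, the G protein gamma subunit of ON bipolar cells, held 3920, 2666 and 2473 UMIs, or 2033, 818 and 749.7 CPM, and was 2.71-fold higher at 2 weeks (2.58 to 2.85). It was the 1 gene of the 16 of sufficient depth past 2-fold, where 1.47% of all genes were 2-fold higher. Other bipolar nuclei gave 1.66 for Gng13. Gnb3, the partner beta subunit, stood at 1668, 955 and 929 CPM (ratio 1.80, 1.71 to 1.89), and Rgs11, a regulator that switches Go off, at 228, 143 and 123 CPM (1.85, 1.61 to 2.12). Pcp2, a Go modulator, stood at 3801, 1962 and 2200 CPM (1.73, 1.67 to 1.79). Gnao1, the alpha subunit of Go, stood at 1481, 1116 and 1229 CPM.

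The receptor gene Grm6 stood at 744, 579 and 493 CPM and was 1.51-fold higher at 2 weeks (1.40 to 1.62). The channel gene Trpm1, a gene of the rule, stood at 6308, 4501 and 4546 CPM and the anchoring receptor gene Gpr179, also of the rule, at 1005, 849 and 862 CPM. Rgs7, the other regulator of Go, stood at 2874, 2164 and 2563 CPM, and its obligate partner Gnb5 at 288, 428 and 363 CPM. The synaptic organiser genes Nyx and Lrit1 stood at 27, 32.5 and 32.1 CPM and at 57.6, 79.7 and 75.2 CPM. The list's median log2 ratio was 0.17 at 2 weeks and 0.09 at 4 weeks. Over all genes the median at 2 weeks was 0.22 for genes under 10 kb, −0.03 from 10 to 100 kb and −0.23 above 100 kb.

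**Figure D3:**
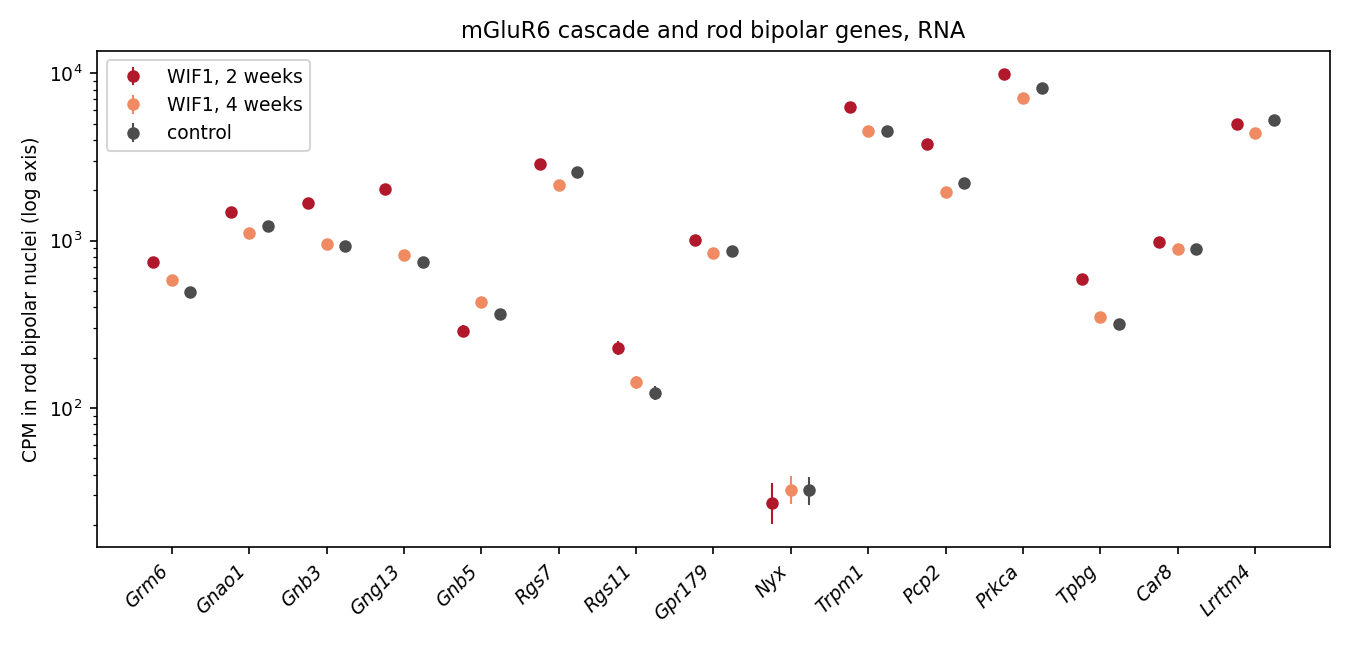
RNA of the mGluR6 cascade and of further rod bipolar genes in members at 2 weeks, at 4 weeks and in the control, as CPM on a log axis with 95% counting intervals. Gng13 stands at 2033 CPM at 2 weeks, 818 at 4 weeks and 749.7 in the control, and most other genes lie closer together.

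Cascade promoters did not follow the RNA. Of 15, 0 were past 2-fold in any pair, with a median log2 ratio of 0.01 at 2 weeks. The Gng13 promoter stood at 57.9, 82.6 and 72.4 CPM, below the control at 2 weeks, that of Grm6 at 23.5, 25.6 and 33.3 CPM, that of Gnb3 at 148, 134 and 134 CPM and that of Pcp2 at 41.0, 37.1 and 40.4 CPM. Nuclear genes of the mitochondrial chain showed the same contrast. Ndufa4 stood at 1188, 594 and 656 CPM and Cox7c at 377, 169 and 207 CPM. Of 25 members 22 were above the control at 2 weeks, with 0 past 2-fold. Their RNA median was 0.49 and their promoter median −0.08. Mitochondrial UMIs were 3.53% of a member at 2 weeks, 1.34% at 4 weeks and 2.95% in the control, as medians, and the part of RNA quality in these values was not tested.

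Most genes that define the type stayed close to the control. Prkca stood at 9860, 7073 and 8221 CPM, Lrrtm4, a postsynaptic adhesion protein, at 4952, 4407 and 5266, and Car8, a carbonic anhydrase relative that binds the IP3 receptor, at 981, 889.8 and 895. They were chosen by the rule, and these are descriptions. The homeobox gene Sebox stood at 281, 204 and 241 CPM, Vstm2b at 758, 548 and 533, and Ano3, a scramblase of the anoctamin family, at 483, 599 and 674. Tpbg, a membrane glycoprotein phosphorylated by protein kinase C alpha, was higher at 2 weeks, at 589, 348 and 319 CPM. Lrrtm4 in members was 184, 146 and 141 times its level in other bipolar nuclei.

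Outside the rule, Wnt5b, a Wnt ligand, stood at 401, 249 and 330.4 CPM in rod bipolar nuclei against 9.69, 10.2 and 9.29 in other bipolar nuclei. The transcription factor gene Isl1 stood at 617, 594 and 517 CPM against 541, 468 and 459 in other bipolar nuclei, and so set the type apart little. Bhlhe23, another, stood at 102, 79.1 and 87.3 CPM against 57.6, 35.8 and 55.5. Of the 15 bipolar transcription factor genes of sufficient depth 0 were past 2-fold against the control at either time, with medians of −0.01 and 0.13. Of these genes, which the rule did not use, Wnt5b set the members apart from other bipolar nuclei most clearly.

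The share of members among nuclei depended on depth. It was 7.09% (6.59 to 7.61) at 2 weeks, 7.91% (7.38 to 8.46) at 4 weeks and 9.55% (8.91 to 10.2) in the control, and the ratio to control was 0.742 at 2 weeks (interval 0.668 to 0.824) and 0.828 at 4 weeks (interval 0.747 to 0.917). Thinned to 1000 UMIs, 641 of 4149 nuclei at 2 weeks, 649 of 6637 at 4 weeks and 623 of 6378 in the control were members, and the 2-week ratio became 1.58 (1.41 to 1.77) and the 4-week ratio 1.001 (0.895 to 1.119). Rods had median depths of 696, 996 and 1143 UMIs, so the floor took out more of them at 2 weeks. Among bipolar nuclei alone members were 49.6%, 49.4% and 47.1%, with ratios of 1.05 and 1.05.

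Members held a median of 2589.5 UMIs at 2 weeks, 3523.5 at 4 weeks and 3966.5 in the control, and 1928618, 3260242 and 3298588 UMIs in all. Prkca UMIs per member had medians of 26, 29 and 35, with a range of 2 to 186 at 2 weeks, 2 to 119 at 4 weeks and 2 to 120 in the control. Just inside the rule were 1, 1 and 3 nuclei with 2 Prkca UMIs, and just outside 2, 2 and 1 nuclei with 1. With 4 further genes detected there were 7, 6 and 11 members, and with 3 there were 10, 16 and 32 nuclei outside. The 2-week and control members shared 1 barcode sequence and the other pairs 0.

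Open chromatin set the rod bipolar nuclei apart from other bipolar nuclei in all 3 libraries. In the control, 1422 of 33139 regions (4.29%) were chosen for having at least 4 times the ATAC level in rod bipolar nuclei that other bipolar nuclei had. Of these 68.3% were at least 4-fold at 2 weeks and 62.6% at 4 weeks, libraries not used in the choice, with median ratios of 6.02 and 5.28 against 6.36 in the control that chose them. Of the regions not chosen 2.07% and 1.59% were at least 4-fold, with medians of 0.961 and 1.03. The chosen regions lay away from promoters, with 74 (5.20%) within 1 kb of a gene start against 36.2% of the 33139 regions, which are the shared regions with at least 30 counts in the control.

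**Figure D4:**
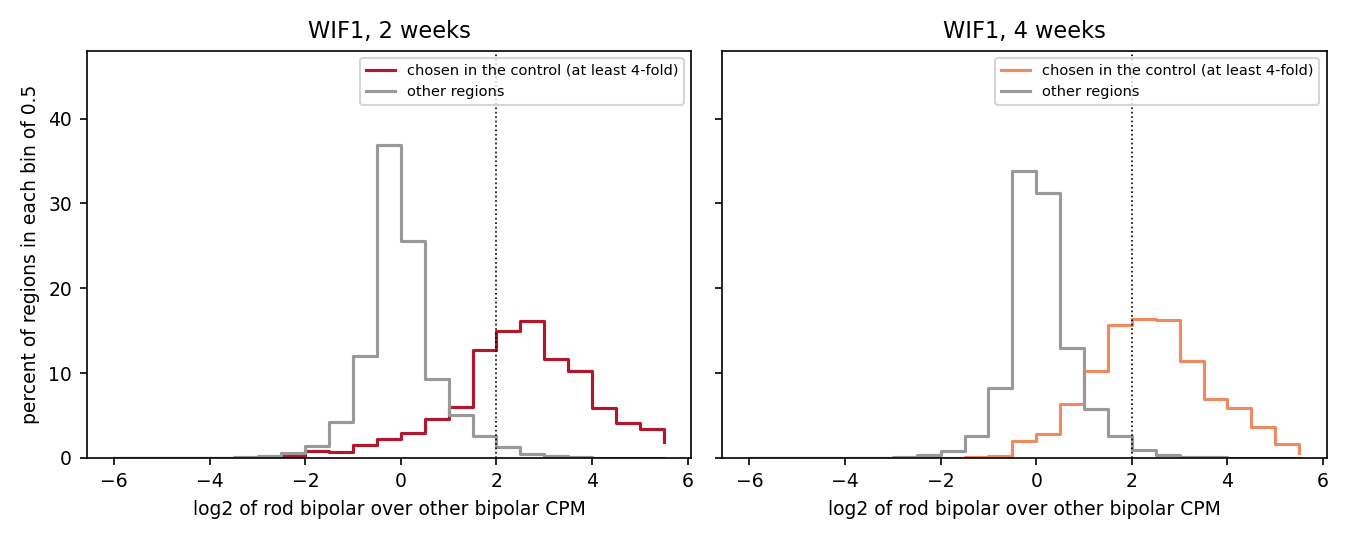
Percent of regions by their ATAC ratio of rod bipolar over other bipolar nuclei (log2) at 2 weeks and at 4 weeks, for the 1422 regions chosen in the control and for the others of the 33139, with a dotted line at 4-fold. The chosen regions centre at ratios of 6.02 and 5.28 and the others at 0.961 and 1.03.

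The chosen regions with the highest control level lay by Adcy1, an adenylyl cyclase gene, at 92.8 CPM at 2 weeks, 86.3 at 4 weeks and 92.7 in the control, and by 1700036G14Rik, at 93.4, 80.1 and 74.4 CPM. Other bipolar nuclei had 25.2, 28.3 and 21.1 CPM by Adcy1 and 25.5, 26.6 and 17.3 CPM by 1700036G14Rik. Rod nuclei had 71.3, 70.8 and 71.3 CPM by Adcy1, so that region was open in rods too. By 1700036G14Rik rods had 4.75, 4.41 and 5.88 CPM. The choice compared rod bipolar with other bipolar nuclei only. Of the next regions 4 were picked for their genes after the values were seen. One inside Prkca, at chr11:108299306-108300201, stood at 77.8 CPM at 2 weeks, 53.0 at 4 weeks and 63.3 in the control, against 6.24, 8.98 and 9.64 CPM in other bipolar nuclei. One upstream of Trpm1, at chr7:64139719-64140662, stood at 64.9, 50.8 and 59.99 CPM against 14.0, 13.9 and 11.4. One at the start of Adrb1, the beta-1 adrenergic receptor gene, at chr19:56721538-56722480, stood at 65.2, 61.8 and 70.0 CPM against 5.67, 4.49 and 7.36. One inside Ablim1, an actin-binding protein gene, at chr19:57095567-57096503, stood at 63.3, 46.7 and 59.3 CPM against 2.27, 3.90 and 1.52. The regions were chosen in the control, and the 2-week and 4-week levels were not used for that choice.

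Gene bodies differed in how many such regions they held. Zbtb20, a zinc finger repressor gene, had 15 chosen of 26 regions and the sodium channel gene Asic2 8 of 13. Prkca had 5 of 12, Lrrtm4 4 of 5 and Wnt5b 3 of 11, while Car8, Trpm1, Grm6 and Gng13 had 0 of 2, 4, 2 and 2. Sox6, a cone bipolar gene of the rule, also had 2 of 3. Together the rule's rod bipolar genes had 11 of 34 and its cone bipolar genes 2 of 6, beside 4.29% of all regions. The promoters of Car8 and Wnt5b were also more open than in other bipolar nuclei. The Car8 promoter stood at 41.9, 34.5 and 38.2 CPM against 13.4, 7.81 and 10.7 in other bipolar nuclei, and that of Wnt5b at 21.1, 23.9 and 29.8 CPM against 6.81, 4.3 and 4.57.

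The median ratio to control of Wnt genes in these nuclei was near that of all genes, and Wif1 itself was near the detection limit. Wif1 held 4 UMIs in 4 nuclei at 2 weeks, 17 in 5 nuclei at 4 weeks and 1 in the control, and the 4-week ratio of 17.2 has an interval of 2.7 to 719. The assay reads RNA from the transcript's 3′ end, so a vector transcript without the native end may not be counted. The Wif1 promoter stood at 24.1, 11.5 and 12.3 CPM, a ratio of 1.96 at 2 weeks against 1.11 in other bipolar nuclei. Tcf4, the bHLH factor gene that the series names as a regulator, stood at 1044, 879 and 941 CPM. Tcf7l2, the beta-catenin partner TCF, held 6, 40 and 30 UMIs, of 1928618, 3260242 and 3298588 UMIs in all. Of the 18 Wnt genes of sufficient depth 0 were 2-fold higher at 2 weeks, beside 1.47% of all genes. Of the same 18, 2 were 2-fold lower, Lgr5 and Dkk3, beside 3.91% of all genes. Without mixed nuclei Dkk3 stood at 1.42 times the control. The median log2 ratio of the Wnt list at 2 weeks was 0.01, beside −0.04 over all genes. Dvl1, which relays Wnt signals from Frizzled, stood at 87.6, 43.2 and 47.3 CPM.

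Synapse, channel and adhesion lists were level or lower. Ribbon genes had a median of −0.07 at 2 weeks and −0.02 at 4 weeks, with Ctbp2, whose RIBEYE form builds the ribbon, at 200.1, 204 and 181 CPM and the active zone gene Rims2 at 837, 1623 and 1371 CPM. Inhibitory receptor genes had medians of −0.33 and −0.20. Gabrr1, a subunit of the GABA-C receptor of the rod bipolar axon, stood at 351, 416 and 405 CPM and Glra1, a glycine receptor subunit, at 262, 178 and 189 CPM. Of 18 channel genes 7 were 2-fold lower at 2 weeks, where 3.91% of all genes were, with Kcnip4, a subunit of A-type potassium channels, at 334, 273 and 765 CPM. Of 25 adhesion genes 8 were lower, beside the same 3.91%, with Pcdh9 at 108, 279.7 and 359 CPM. The share over all genes varied with gene span, at 183 of 1530 above 100 kb and 99 of 5061 from 10 to 100 kb. Neither list was matched by span. Without mixed nuclei Pcdh9 stood above the control at 2 weeks, at 1.14 times. Other bipolar nuclei hold more Kcnip4, at 2058, 2548 and 3386 CPM, and more Pcdh9, at 5007, 6102 and 5730 CPM, and the cone bipolar marker sum in members was 490.0, 572 and 755 CPM.

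**Figure D5:**
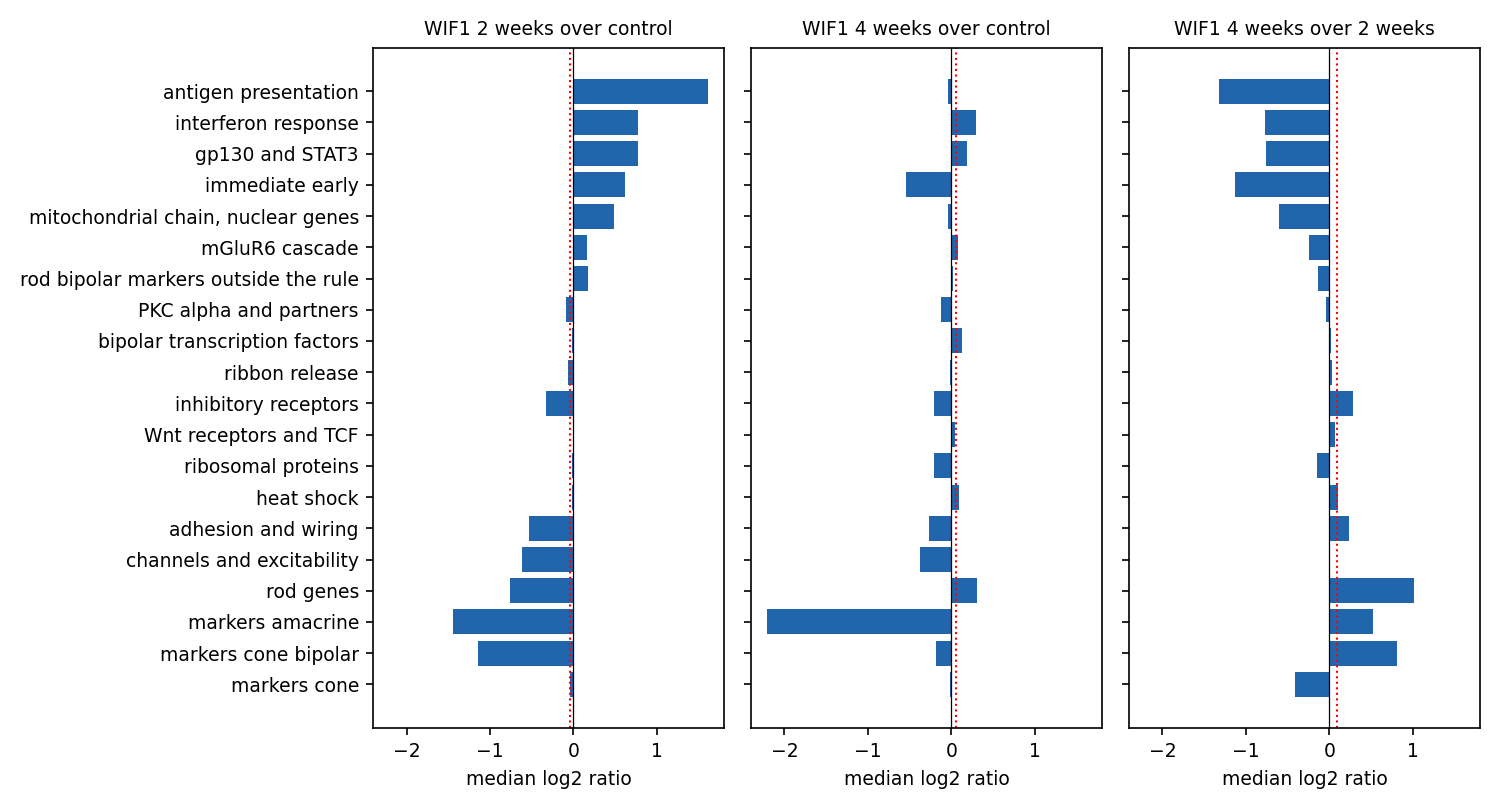
Median log2 ratio of each gene list (bars, members with at least 10 UMIs) in rod bipolar nuclei, for 2 weeks over control, 4 weeks over control and 4 over 2 weeks with a red dotted line at the median of all genes. The antigen presentation median is 1.61 at 2 weeks and −0.04 at 4 weeks, and the mGluR6 cascade stands at 0.17 and 0.09.

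Immediate early genes had a median of 0.62 at 2 weeks, −0.55 at 4 weeks and −1.13 for 4 over 2 weeks. Fos, an AP-1 subunit, stood at 79.8, 21.8 and 32.1 CPM, the nuclear receptor gene Nr4a1 at 156, 70.9 and 103, and the phosphatase gene Dusp1 at 39.9, 12.6 and 19.1. Of the 7 members of sufficient depth 2 were 2-fold higher at 2 weeks, beside 1.47% of all genes, and 3 were 2-fold lower for 4 over 2 weeks, beside 1.58%. Such genes also respond to tissue handling, which was not tested. The Fos promoter stood at 88.1, 97.9 and 103 CPM. Heat shock genes had medians of −0.02 and 0.10, and genes of cell stress and death 0.26 and 0.21.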

How the data were processed

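The deposited matrices hold whole-number counts for each barcode, RNA UMIs by gene and ATAC counts by peak, and the file headers name no normalization. Cell Ranger ARC 2.0.1, Seurat 5.0.1, Signac 1.12.0 and the build mm10 are listed, without roles, in the submitters' processing notes. Peaks differ between the deposited libraries. 1 library per group allows no test.

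Barcodes of at least 500 UMIs and at most 10% mitochondrial UMIs were kept, which took out 3400, 294 and 0 barcodes under the floor at 2 weeks, at 4 weeks and in the control, and 223, 403 and 873 over the limit. Members followed the rule in the report. Doublets, 108, 125 and 119 of the members, were called from simulated doublets by nearest neighbours and kept. Other bipolar and rod nuclei were chosen by marker UMIs.

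UMIs were summed over members of a library and given as CPM with exact Poisson intervals. Ratios have conditional binomial intervals, and shares have Clopper-Pearson intervals. Past the fold means at least 2-fold with at least 50 UMIs (promoters 30 counts) in the higher library. List medians take members of at least 10 UMIs. Promoter ATAC is the summed count of peaks within 1000 bp of a gene start that overlap between all 3 libraries, as CPM of counts in such shared regions, which covered 38.9, 38.6 and 38.1 Mb with 174, 255 and 143 counts per kb. The scripts were tested on simulated data.

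The named genes are the 10 highest and 10 lowest ratios per pair without mitochondrial, sex-linked, immunoglobulin and rod-list genes (a library under 3 UMIs set to 3), list members, and Wif1, Tcf4 and Tcf7l2. Regions, promoters and genes named beyond these were chosen after their values were seen. Members and lists were chosen with earlier results of these data known. Alternatives changed depth, doublets, thresholds and scaling. Computing used Python 3.11.15, numpy 2.4.6, scipy 1.17.1, pandas 2.3.3, scikit-learn 1.9.0 and matplotlib 3.10.9. Some items are not reported here.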

Additional observations from a re-analysis of the deposited data

Results flagged for a closer look

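Genes moved in opposite directions in rod bipolar and other bipolar nuclei in 7 cases, each by at least 2-fold, and the difference was not tested in any of them. The number of genes and pairs looked at is not given, so the 7 cannot be read as a share. Rgs5 had a log2 ratio at 2 weeks over control of −1.53 in rod bipolar nuclei and 2.28 in other bipolar nuclei. Hs6st3 had −3.65 and 3.21 in the same comparison. Galnt18 had −1.44 and 1.0 at 4 weeks over control. For 4 weeks over 2 weeks Thsd7b had 1.48 and −1.10, Lrp1b −1.02 and 1.65, Podxl 1.46 and −1.20, and Epas1 1.68 and −1.03. Amacrine-list UMIs in rod bipolar nuclei, 47 at 2 weeks, 86 at 4 weeks and 303 in the control, moved with several of these libraries, and their part was not tested. Endothelial and mural markers summed to 73.6, 70.9 and 135.5 CPM in the same nuclei, and their part was not tested either. Without mixed nuclei Hs6st3 in rod bipolar nuclei was at 0.308 times the control at 2 weeks, from 11 and 46 UMIs, and Galnt18 held 2 UMIs at 4 weeks and 2 in the control.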

How the results depend on the processing

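No paired analysis was possible because each group is 1 library. Ratios of member shares (2 weeks over control, 4 weeks over control, 4 over 2 weeks) were 1.58, 1.001 and 0.633 with nuclei thinned to 1000 UMIs, 1.47, 0.998 and 0.680 among nuclei of at least 1000 UMIs, and 1.05, 1.05 and 0.995 among bipolar nuclei, so their direction against the control depends on depth and on the denominator. Without called doublets they were 0.764, 0.840 and 1.10.

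Counts of genes past 2-fold, higher then lower in the same order of pairs, were 430 and 1080, 388 and 568, and 1096 and 483 with a minimum of 10 UMIs, and 59 and 172, 40 and 46, and 297 and 68 with a minimum of 100. With thinned nuclei they were 79 and 63, 3 and 13, and 71 and 75. Without mixed nuclei, an alternative added after the values were seen, 104 genes were lower at 2 weeks than control, 6 higher and 34 lower at 4 weeks than control, and 101 higher for 4 over 2 weeks. Genes higher at 4 weeks than control numbered 197 without called doublets, 27 without nuclei of over 5% rod-list UMIs, 42 without the nucleus of most UMIs in each library (added after the values were seen) and 21 by the mean of per-nucleus CPM, which gave 196 higher for 4 over 2 weeks. Median log2 ratios that reversed without mixed nuclei were amacrine at 0.17 and cone bipolar at 0.37 for 2 weeks over control, and rod genes at −0.44 for 4 over 2 weeks. The definition of mixed nuclei itself removes members by rod-list, amacrine and cone bipolar UMIs, so these medians are no check. By that definition the kept members hold no UMI of its 10 amacrine genes. The amacrine median then rests on the rest of its list of 12.

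With promoter counts scaled to all ATAC counts 69 promoters were higher at 2 weeks and 17 at 4 weeks than control. With a minimum of 10 counts 766 and 311 were lower. Without mixed nuclei, added after the values were seen, promoters higher and lower were 301 and 133, 63 and 87, and 43 and 342. Of regions chosen at 2-fold in the control 61.7% and 61.8% were 2-fold at 2 and 4 weeks, with medians of 2.60 and 2.44. Of the named genes' other values 572 kept within the counting interval and 54 moved beyond it. Values where both libraries fell under 10 UMIs are in neither count. Among those left out are Galnt18 and Grik2 at 2 weeks over control without mixed nuclei, with 0 and 2 and with 8 and 1 UMIs. The tally therefore does not cover genes that lost most of their UMIs. Depth limits low genes, since members of the 2-week library hold 1928618 UMIs against 3298588 in the control.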

Other observations

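Sterol and lipid synthesis genes had a median log2 ratio of −0.40 in rod bipolar nuclei at 2 weeks over control and 0.08 at 4 weeks, with 0 past 2-fold against the control. Ribosomal protein genes had −0.02 and −0.21. Igkc UMIs were seen in 104 rod bipolar nuclei of the 2-week library, and in 0 of the other libraries. The promoter of Kcnd3, a potassium channel gene, was 2.07-fold higher at 2 weeks while its RNA held 13 UMIs at 2 weeks, 27 at 4 weeks and 114 in the control. Without mixed nuclei Kcnd3 held 8, 6 and 3 UMIs, too few for a ratio.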
